A study of Homo sapiens with 18 samples.

Results

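The regions described here are those that an antibody against YTHDF1 marked in A549 cells with and without a YTHDF1 knockout. They come from 4 of the 18 samples of the series, 2 libraries of wild-type cells (WT) and 2 of YTHDF1-knockout cells (KO), each with a list of called peaks. Peaks of the 4 lists on chromosomes 1 to 22 and X were merged wherever they overlapped, which gave 113989 regions, and a region counts as held by a list that has a peak in it (1 bp of overlap). A549 is an established human lung adenocarcinoma line. WT cells have no listed change and KO cells a listed YTHDF1 knockout, and no treatment is listed for either. Lists outside the comparison were read as well. They were 2 anti-YTHDF1 lists of A549 cells with an ARID1A knockdown (siARID1A), and 2 anti-ARID1A lists each of WT and KO cells. How the knockout was made, and whether KO cells came from 1 clone, was not given in the sources used here. CUT&Tag was the assay, in which an antibody on chromatin recruits a transposase that cuts and tags the DNA beside it. Antibody, cell number and protocol were the same in both conditions per the labels, and whether replicates were separate cultures is not stated, so the spread between them may be technical.

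YTHDF1 binds N6-methyladenosine (m6A), a common modification of messenger RNA, and is best known in the cytoplasm, where it acts on the translation and fate of modified transcripts. It has no known DNA-binding domain, so any YTHDF1 protein on chromatin would likely be there through RNA or another protein. In CUT&Tag any antibody also collects some cuts at open chromatin, such as active gene starts. A knockout can show how much of a peak list is independent of the antibody's target, if the protein is lost and replicate lists agree. Loss of the YTHDF1 protein was not examined here. A peak at the YTHDF1 gene itself reports DNA near the antibody and is no check of the YTHDF1 protein. The start of YTHDF1 (gene at chromosome 20, 63195429 to 63216131) had a called peak in every one of the 4 lists. It stood at the 53.9 and 63.1 percentiles in WT and the 36.4 and 69.5 percentiles in KO. A percentile is the rank of a peak's total signal within its own list, where 100 is the strongest, and where several peaks lie at a start or in a region the strongest is taken. The KO values of YTHDF1 lie to both sides of its WT values.

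Promoters of 6 genes show what kinds of sequence the peaks lay on. YTHDF1 and SIN3A stand for starts with a peak in all 4 lists, JUND and MCM3 for starts with a peak in both WT lists and neither KO list, and NKG7 and CIART for the reverse. Each line gives 250 bases before and 50 bases after the RefSeq start on the gene's strand (GRCh38.p14). Capitals mark matches, on either strand, to GGGCGG (the GC box), CCAAT (the CCAAT box) or TGACGTCA (the cAMP response element). TATAAA (the TATA box), TGACTCA (the AP-1 site) and CCGGAAG (an ETS site) were also searched and have no match in these 6 windows.
YTHDF1: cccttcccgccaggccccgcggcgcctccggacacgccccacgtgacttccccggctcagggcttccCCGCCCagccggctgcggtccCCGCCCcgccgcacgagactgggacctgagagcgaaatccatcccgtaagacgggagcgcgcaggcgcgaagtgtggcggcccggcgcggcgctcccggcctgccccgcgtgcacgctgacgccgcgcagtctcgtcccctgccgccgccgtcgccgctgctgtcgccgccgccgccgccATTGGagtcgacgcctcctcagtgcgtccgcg
SIN3A: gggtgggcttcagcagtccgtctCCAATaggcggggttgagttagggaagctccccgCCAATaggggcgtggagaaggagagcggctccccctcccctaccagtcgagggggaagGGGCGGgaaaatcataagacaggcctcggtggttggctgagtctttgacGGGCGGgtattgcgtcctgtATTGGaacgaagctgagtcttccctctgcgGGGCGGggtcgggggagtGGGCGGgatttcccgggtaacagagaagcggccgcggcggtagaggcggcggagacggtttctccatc
JUND: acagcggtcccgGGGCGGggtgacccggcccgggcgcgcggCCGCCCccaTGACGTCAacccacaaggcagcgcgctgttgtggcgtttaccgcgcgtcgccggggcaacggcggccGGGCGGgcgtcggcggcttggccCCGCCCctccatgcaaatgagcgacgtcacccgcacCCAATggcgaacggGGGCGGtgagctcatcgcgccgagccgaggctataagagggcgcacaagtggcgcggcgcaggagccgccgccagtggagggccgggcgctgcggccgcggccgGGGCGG
MCM3: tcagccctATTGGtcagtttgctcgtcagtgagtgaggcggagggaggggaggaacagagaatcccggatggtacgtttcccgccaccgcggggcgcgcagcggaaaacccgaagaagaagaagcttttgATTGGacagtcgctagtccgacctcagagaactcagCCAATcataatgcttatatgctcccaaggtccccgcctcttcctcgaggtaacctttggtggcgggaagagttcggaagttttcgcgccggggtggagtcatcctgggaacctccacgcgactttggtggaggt
NKG7: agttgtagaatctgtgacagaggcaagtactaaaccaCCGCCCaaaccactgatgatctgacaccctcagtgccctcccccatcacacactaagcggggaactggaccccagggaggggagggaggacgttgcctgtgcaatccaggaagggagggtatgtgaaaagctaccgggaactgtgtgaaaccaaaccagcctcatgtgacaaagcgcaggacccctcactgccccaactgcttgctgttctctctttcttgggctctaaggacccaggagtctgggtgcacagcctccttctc
CIART: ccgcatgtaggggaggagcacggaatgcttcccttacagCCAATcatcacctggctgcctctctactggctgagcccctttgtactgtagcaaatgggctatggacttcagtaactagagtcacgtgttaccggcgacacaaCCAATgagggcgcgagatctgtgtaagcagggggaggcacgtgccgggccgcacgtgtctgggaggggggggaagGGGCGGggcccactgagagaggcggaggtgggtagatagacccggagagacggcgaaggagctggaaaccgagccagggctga
The windows lie at chr20:63216082-63216381 for YTHDF1 and chr15:75451641-75451940 for SIN3A, a scaffold of histone deacetylase complexes. JUND, an AP-1 transcription factor, has its window at chr19:18281573-18281872. That of MCM3, part of the helicase that opens DNA for replication, is chr6:52284693-52284992. NKG7, a granule protein of cytotoxic lymphocytes, has chr19:51372605-51372904, and CIART, a repressor in the circadian clock, chr1:150282304-150282603. The window of CIART is on the plus strand and the other 5 are on the minus strand. GC content was 77.3% for YTHDF1, 64% for SIN3A, 77% for JUND, 57.3% for MCM3, 56% for NKG7 and 61.3% for CIART. JUND had 6 GC boxes and 1 cAMP response element, SIN3A 4 GC boxes and 3 CCAAT boxes, and MCM3 3 CCAAT boxes and no GC box.

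The same features were counted over 22132 listed starts of protein-coding genes, classed by the peaks within 1 kb of each start. A GC box was found in 76.0% of the windows held by all 4 lists, 70.6% of those held by WT alone (both WT lists, neither KO list) and 64.7% of those held by KO alone (the reverse). The share was 56.3% over all starts and 38.1% where no list had a peak. Median GC content ran in the same order, at 67%, 66%, 64.3%, 62.3% and 54.3%. A TATA box was found in 4.38%, 4.91% and 4.95% of these 3 held classes and in 15.2% of starts without a peak. All held classes thus lay on GC-rich starts. In GC box, GC content and TATA box, WT-alone and KO-alone starts were nearer to each other than to starts without a peak. The CCAAT box differed, at 36.0% for WT alone, 27.2% for KO alone, 36.0% without a peak and 34.6% over all starts. The cAMP response element was found in 3.56% of WT-alone and 1.77% of KO-alone windows, and 2.26% of all. An ETS site was in 18.8% and 12.7%, and 12.8% of all. The AP-1 site went the other way, with 2.70% of WT-alone and 4.24% of KO-alone windows, and 4.01% of all. Starts held by 1 WT and 1 KO list had the cAMP response element in 1.80%, an ETS site in 15.7% and the AP-1 site in 3.51%. WT-alone starts numbered 814 and KO-alone starts 283, so small shares rest on few windows, and these differences were not tested. A match describes these letters only and is not evidence of a bound factor.

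The 4 lists were of similar kind but not of similar size. WT replicate 1 had 57764 peaks covering 89.6 Mb and WT replicate 2 had 40562 covering 49.3 Mb. KO replicate 1 had 50774 peaks covering 61 Mb and KO replicate 2 had 46225 covering 57.8 Mb. Both KO lists lay between the WT lists, so the groups overlapped. WT replicate 1 stood apart, with a summed signal in peaks of 239.6 against 132.6 to 143.6 in the other 3 lists, in Mb covered by 1 step. A step is the smallest increment of coverage in a list, and would be 1 fragment if the authors counted whole fragments. The sequencing depth itself is unknown. The highest coverage within a peak had a median of 4 steps in each list, and 25.3% and 36.4% of WT peaks and 46.9% and 40.4% of KO peaks reached only 2 or 3. Most calls therefore rested on few overlapping fragments on that reading. Peaks reaching 10 or more steps made up 6.07% and 4.09% of the WT lists and 2.50% and 3.13% of the KO lists.

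KO had 48500 ± 3217 peaks and WT 49163 ± 12164 (mean ± SD, n = 2 each), a ratio of 0.987 (exact two-sided permutation test, p = 1). For covered length the KO to WT ratio was 0.856, with p = 1 in the same exact test. For median peak width it was 0.925 (p = 0.667, exact permutation). All 3 ratios passed to the other side of 1 without WT replicate 1, at 1.2, 1.2 and 1.01, and that of peak numbers did so without KO replicate 2, at 1.03. The share of peaks within 1 kb of a gene start was 16.8% and 17.4% in WT and 14.5% and 15.3% in KO. Both KO lists were below both WT lists, with a mean difference of -2.17 percentage points (exact permutation p = 0.333, the smallest that 2 against 2 can give). The share of peaks with 2 or 3 steps moved with it, being higher in both KO lists. Its part in the difference was not tested.

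Of the 113989 merged regions 8120 (7.12%) were held by all 4 lists, 3588 (3.15%) by WT alone and 2254 (1.98%) by KO alone. A single list held 79762 regions, or 70.0%. Among regions held by 1 WT and 1 KO list, WT replicate 1 with KO replicate 1 shared 4365 and WT replicate 1 with KO replicate 2 shared 4051. Each of these counts exceeds that of WT alone. WT replicate 2 shared 1575 with KO replicate 1 and 1502 with KO replicate 2, fewer than KO alone. Counts thus also followed WT replicate 1, the longest list. Just outside the WT-alone class lay 2424 and 2411 regions held by both WT lists and 1 KO list. Just outside the KO-alone class lay 3136 regions that WT replicate 1 also held and 801 that WT replicate 2 also held. When 1 library was left out, WT-alone counts ranged from 6176 to 28820 and KO-alone counts from 3142 to 24876, since a class then rests on fewer lists. KO-alone regions outnumbered WT-alone regions without KO replicate 1 and without KO replicate 2.

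**Figure D1:**
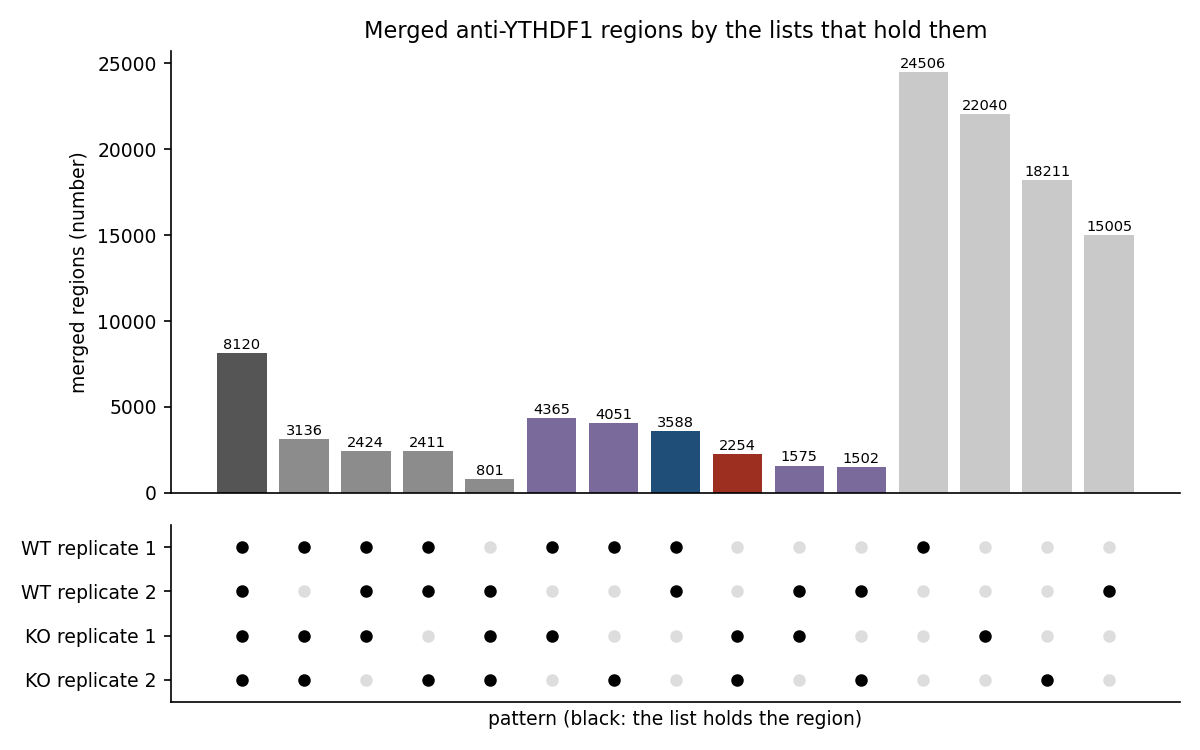
Number of merged anti-YTHDF1 regions (vertical axis) for each combination of the 4 lists that hold them (black dots below). WT-alone regions number 3588 and KO-alone regions 2254, while the combinations of WT replicate 1 with a KO list hold 4365 and 4051.

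Whether a peak recurred followed its total signal far more than the condition of the second list. Total signal is summed over a peak and so also rises with width, and a wider peak meets 1 bp of overlap more easily. The part of width was not tested. Peaks in the lowest 10% by percentile were held by the other list of their own condition in 19.8% of cases on average and by a list of the other condition in 19.3%. At percentiles 40 to 50 the shares were 27.1% and 26.9%. Between percentiles 80 and 90 they were 64.9% and 63.4%, and in the top 10% 88.6% and 87.5%. Single pairs of lists in the top 10% ranged from 84.8% to 95.6% within a condition and from 81.2% to 93.8% between conditions, so the ranges overlapped. Over all peaks the means were 38.8% and 38.2%. These are averages over 4 and 8 ordered pairs of lists, in which each list serves equally often as the target.

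**Figure D2:**
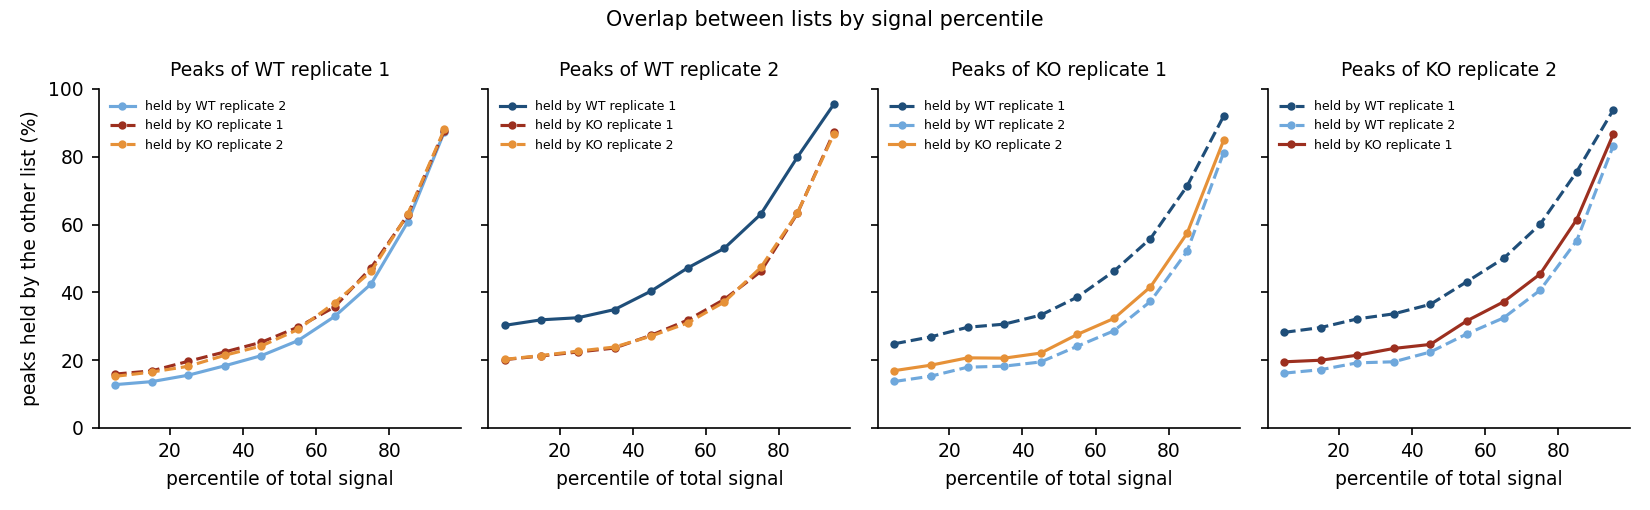
Share of the peaks of each list (1 panel per list) that another list holds, in percent, against the percentile of total signal, in steps of 10. Solid lines are lists of the same condition and dashed lines lists of the other, and no pair exceeds 30.2% in the lowest bin or falls below 81.2% in the highest.

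Regions held by all 4 lists were wide and strong. Their median width was 3638 bp (10th to 90th percentile, 1838 to 8715), against 1682 bp (1117 to 2682) for WT alone and 1558 bp (1051 to 2421) for KO alone. Median percentiles of the shared regions were 88.9 and 82.3 in the WT lists and 85.1 and 83.8 in the KO lists. WT-alone regions had medians of 51.7 and 49.0 in the WT lists and KO-alone regions 49.4 and 46.9 in the KO lists. Regions of 1 WT and 1 KO list had a median width of 1654 bp and a median mean percentile of 46.9, beside 48.0 for WT alone and 47.0 for KO alone. Their 10th to 90th percentiles of mean percentile were 21.8 to 73.5, beside 22.2 to 75.6 for WT alone and 20.2 to 73.0 for KO alone. In width and rank these 3 classes thus overlapped over nearly their whole range. Only 214 WT-alone regions (5.96%) and 92 KO-alone regions (4.08%) had a mean percentile of 80 or more, against 3799 (46.8%) of the shared regions. A region spans all peaks merged into it, so width and number of lists are not independent. These values describe the classes and carry no test.

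**Figure D3:**
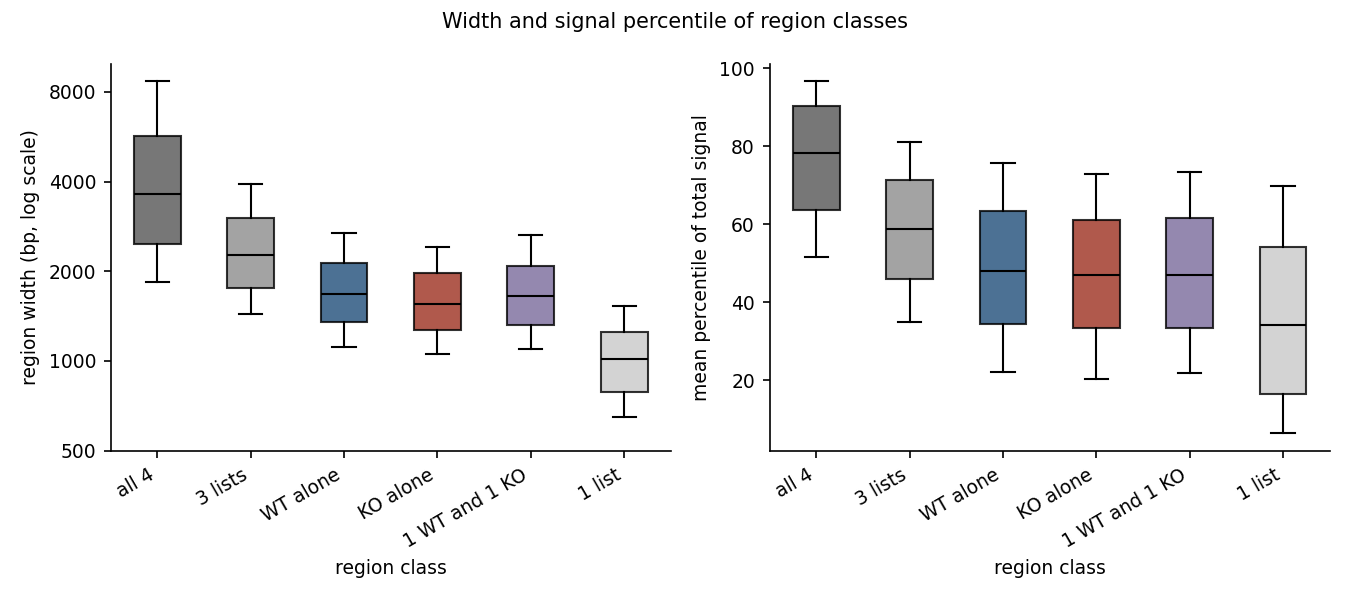
Width in bp on a log scale (left) and mean percentile of total signal over the lists that hold a region (right) for each class of regions. Boxes show the quartiles and median and whiskers the 10th and 90th percentiles, and the boxes of WT alone (median 1682 bp) and KO alone (1558 bp) overlap each other and that of 1 WT and 1 KO (1654 bp).

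By genomic place the classes differed mainly at gene starts. Outside chromosome 8, whose starts were not used here, 3037 of 7769 shared regions (39.1%) came within 1 kb of the start of a protein-coding or long non-coding RNA gene. The share was 709 of 3484 (20.4%) for WT alone, 258 of 2171 (11.9%) for KO alone, 16.4% for regions of 1 WT and 1 KO list and 7.05% for regions of a single list. Within genes but away from listed starts lay 44.5% of the shared, 53.6% of the WT-alone and 59.4% of the KO-alone regions. Between genes lay 16.4%, 26.0% and 28.7%. The median distance from the middle of a region to the nearest start was 6.65 kb for shared, 11.4 kb for WT-alone and 16.9 kb for KO-alone regions. Among regions of 1 to 2 kb alone the shares at starts were 45.5% for shared, 20.3% for WT-alone and 11.5% for KO-alone regions, so the order was also present at like width. Some of these regions lay beside stronger ones. Of WT-alone regions 19.3%, and of KO-alone regions 17.6%, were within 5 kb of a region held by all 4 lists, as were 19.7% of regions of 1 WT and 1 KO list.

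The distance of peaks from gene starts was taken over starts chosen for a peak within 1 kb, which by itself favours short distances. In starts of the shared class the place of highest signal lay a median of 295, 311, 322 and 310 bp from the start in WT replicates 1 and 2 and KO replicates 1 and 2. In WT-alone starts the distances were 270 and 334 bp, and in KO-alone starts 396 and 458 bp. The highest signal lay within 500 bp in 69.9% and 66.3% of WT-alone starts and 58.2% and 53% of KO-alone starts, counting those with such a place within 2 kb. The KO-alone places, over 283 starts, were thus more spread around the start than those of the all-4 and WT-alone classes. Starts held by 1 WT and 1 KO list were not measured in this way.

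Of the 5 shared regions of highest percentile 2 lay over annotated multicopy sequences and 3 between genes near chromosome ends. At the top was a region near the start of chromosome 5 (9980 to 12312), where the highest coverage was 2443 and 2994 steps in WT and 2825 and 3284 in KO. Another was a stretch of chromosome 1 (628759 to 635014) that holds pseudogenes of mitochondrial genes such as MTCO1P12. It reached 1878 and 1707 steps in WT and 1184 and 1161 in KO. A ribosomal DNA repeat with RNA45SN2 on chromosome 21 (8217391 to 8247424) reached 55 and 44 steps in WT and 31 and 29 in KO. Regions near the ends of chromosomes X (156029396 to 156030800) and 22 (50805843 to 50808490) completed the 5 of highest percentile. The widest, 64.0 kb on chromosome 16 (625169 to 689146), ran over 10 protein-coding genes, STUB1, RHOT2, WDR90 and RAB40C among them. The next were clusters of SNAR small RNA genes on chromosome 19 (47903501 to 47958263 and 50091522 to 50139975). Reads from near-identical copies cannot be placed with certainty.

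Among protein-coding gene starts the shared peaks of highest percentile were at SIN3A, FARP2, a guanine nucleotide exchange factor, MUC1, an epithelial mucin, CIC, a transcriptional repressor, and RHOU, a small GTPase. The start of MUC1 stood at 99.9 in each of the 4 lists, with highest coverage of 46 and 54 steps in WT and 39 and 35 in KO. The start of SIN3A reached 53 and 43 steps in WT and 31 in each KO list, and that of FARP2 346 and 384 steps in WT and 121 and 151 in KO. Markers of the tissue of origin were examined as well. KRT8, a keratin of simple epithelia, had its start at percentiles 99 and 98.8 in WT and 97.4 and 95.8 in KO. Of 14 lung and A549 epithelium genes with a listed start 4 were held by all 4 lists (28.6%, beside 16.6% of all genes), namely MUC1, KRT8, GATA6 and CEACAM6. The start of FOXA1, a lung lineage factor, was held by none of the 4 lists. Of 11 haematopoietic genes only CD79A was held by all 4 (9.09%, beside 16.6% of all genes), while 7 had a peak in at least 1 list. PTPRC, CD3D, GZMB and PRF1 were held by none, as were 37.4% of all genes. Of 13 neuronal genes 4 were held by all 4 (30.8%), namely DLG4, SLC17A7, TUBB3 and RBFOX3, so a peak at a start is no sign of a cell type. The CDKN2A gene, which A549 cells are known to have lost, had a peak in 0 of the 4 lists.

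Of 15812 protein-coding genes with a listed start 599 (3.79%) were held by WT alone and 206 (1.3%) by KO alone, while 2632 (16.6%) were held by all 4 lists. Over the 16 gene lists examined, 292 genes had a start, of which 16 (5.48%) were WT-alone, 1 (0.342%) KO-alone and 65 all-4 genes. The lists were chosen with earlier results of these data known, and their WT-alone share lies near the background.

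Readers of m6A, the family YTHDF1 belongs to, gave 2 WT-alone starts among 9 with a listed start, beside 3.79% of all genes. IGF2BP2, which stabilises modified messenger RNAs, stood at percentiles 22.2 and 30.4 in the WT lists. YTHDF2, which promotes decay of modified RNAs, stood at 14 and 15.3. It fell outside the limit of 15 named list genes and was chosen after its values were seen. Both ranked low. IGF2BP2 lost its pattern with lists of equal length and also without the weakest 25% of each list, and YTHDF2 was not tried there. The readers HNRNPA2B1, HNRNPC, IGF2BP3 and YTHDF1 were held by all 4 lists (44.4%, beside 16.6% of all genes). YTHDC1, YTHDC2 and FMR1 were held by none, as were 37.4% of all genes. Of 10 writers and erasers none was WT-alone or KO-alone, beside 3.79% and 1.3% of all genes. The demethylase ALKBH5 stood at 90.7 and 97.9 in WT and 98.1 and 90.7 in KO, and the writer subunit RBM15 at 95 and 95.7 in WT and 92.2 and 96 in KO. The WT and KO ranks of both genes overlapped.

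R-loops are RNA-DNA hybrids that helicases and nucleases resolve. Of 26 genes of this process 6 were held by all 4 lists (23.1%, beside 16.6% of all genes). No list held 6, as was so for 37.4% of all genes. WT alone held 2 and KO alone none, beside 3.79% and 1.3% of all genes. DDX1, an RNA helicase, stood at 14.1 and 35.6 in WT, and XRN2, an exoribonuclease of transcription termination, at 29.6 and 43.5. Held by all 4 were BRCA1 at 95.7 and 91.4 in WT and 95.9 and 97.4 in KO, and PIF1, a DNA helicase, at 88.9 and 86.2 in WT and 90.7 and 89.9 in KO. BLM, DDX5, THOC5 and TOP1 were also held throughout. In 4 of these 6 genes, BRCA1, PIF1, BLM and THOC5, both KO ranks were above both WT ranks. For BRCA1 the nearest values, 95.7 in WT and 95.9 in KO, almost met, and for PIF1 they were 88.9 and 89.9. BRCA1 lies on chromosome 17 beyond 40 Mb, where shared regions had a median shift of 3.21 percentile points in KO. BLM, a helicase, stood at 59.1 and 74.7 in WT and 80.8 and 85.3 in KO, and THOC5, of the messenger RNA export complex, at 36.5 and 23.4 in WT and 61.1 and 82.6 in KO. TOP1, which relieves supercoiling ahead of polymerases, stood at 70.3 and 69.8 in WT and 36.1 and 36.5 in KO, and was the 1 gene of the 6 with both KO ranks below both WT ranks. DDX5 overlapped. Over all shared regions both KO ranks were below both WT ranks in 21.1% and above both in 15.9%.

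Genes of nucleic acid sensing, the interferon response and antigen presentation often lacked a peak, as did 37.4% of all genes. Of 16 sensing genes 7 had no peak in any list and 1, the adaptor gene MAVS, was held by all 4 (percentiles 93.2 and 64.9 in WT, 83.8 and 87.8 in KO). ADAR, which edits double-stranded RNA, was WT-alone at 59.2 and 43.4. Of 22 interferon-stimulated genes 10 had no peak, IRF1 and STAT2 were held by all 4 lists, and ISG15, a ubiquitin-like protein, was WT-alone at 85.6 and 89.1. ISG15 had the second highest mean percentile of the list genes in that class, with 6 and 7 steps at its highest. Of 14 antigen presentation genes 8 had no peak, and CALR, CANX and PSMB10 were held by all 4. Among those without a peak, HLA-B, HLA-C, HLA-F, PSMB9, TAP1 and TAP2 lie on chromosome 6 between 29723434 and 32859851. At most 1 of the 4 anti-ARID1A lists of WT and KO cells had a peak at each of their starts. In siARID1A cells 1 anti-YTHDF1 list had a peak at the starts of PSMB9, TAP1 and TAP2, and none had one at HLA-B, HLA-C or HLA-F. The absent calls in WT and KO cells are thus not particular to the YTHDF1 antibody and say little about these genes. No gene of the 3 groups was KO-alone, beside 1.3% of all genes. All 4 lists held 6.25% of the sensing, 9.09% of the interferon-stimulated and 21.4% of the antigen presentation genes, beside 16.6% of all genes. Among 13 checkpoint ligands PVR (69 and 43.6) and CD276 (63 and 45) were WT-alone, beside 3.79% of all genes. NECTIN2 was held by all 4 lists (7.69%, beside 16.6% of all genes). CD274, which encodes PD-L1, had no peak in any list.

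The other WT-alone calls came from 6 further lists, and over all genes 3.79% were WT-alone. JUND stood at 46.7 and 89.3, with 6 and 8 steps at its highest. It was the only WT-alone gene among 17 of the AP-1 and ATF family. ATF5, ATF7, FOSL2, MAFF and MAFG were held by all 4 lists (29.4%, beside 16.6% of all genes). MCM3 (45.6 and 75.2) and ORC1, an origin recognition subunit (57.6 and 73.5), were WT-alone among 21 replication genes. Of these PCNA, MCM7, CDC6, CDC45 and ORC6 were held throughout (23.8%, beside 16.6% of all genes). PCNA, the sliding clamp, stood at 95.4 and 96.9 in WT and 95.5 and 94.5 in KO. NRF2 drives antioxidant genes and is known to be active in A549 cells. Of 18 genes of that list 7 were held by all 4 (38.9%, beside 16.6% of all genes) and 2 were WT-alone. These were TXNRD1, thioredoxin reductase, at 83.4 and 92.8, and AKR1C2, an aldo-keto reductase, at 47.6 and 70.1. SRXN1, sulfiredoxin, was held by all 4 but ranked 88.6 and 93.7 in WT and 16.7 and 4.93 in KO. FTL, ferritin light chain, stayed between 95.6 and 99.8 in all 4 lists. SMARCD3, a SWI/SNF subunit, was WT-alone at 96.6 and 66.3 among 22 subunit genes, and the start of ARID1A had a peak in WT replicate 1 alone of the 4 lists (61.3). Also WT-alone were KLF1, an erythroid factor, at 74.8 and 65.7, and RPS13 at 25.5 and 51.2 among 47 ribosomal protein genes. Of 19 DNA damage response genes none was WT-alone or KO-alone, beside 3.79% and 1.3% of all genes.

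The 5 WT-alone genes of highest percentile were NPDC1 (99.7 and 97.1), DRC10 and TPCN1, which share 1 peak between their starts (92.5 and 93.5), BZW1 (92.1 and 93.6) and SCGB1C1 (99 and 86.4). The highest coverage at TPCN1, an endolysosomal channel, was 19 and 7 steps. In the opposite direction the highest percentiles were at LOC122455342 (92.7 and 99.3), MYO15B (85.5 and 98.3), LOC124904414 and CIART, which share a peak (92.6 and 89.9), and NANP, a sialic acid phosphatase (88.2 and 88.9). NKG7 (67.3 and 23) was the 1 list gene held by KO alone, at 4 and 3 steps. With windows of 3 kb 11 of the 20 named WT-alone and 2 of the 6 named KO-alone genes kept their pattern, TXNRD1, MCM3, ORC1, PVR, BZW1, NANP and NKG7 among them. JUND, ISG15, SMARCD3, ADAR, CD276, NPDC1, DRC10, TPCN1, SCGB1C1, LOC122455342, MYO15B, LOC124904414 and CIART did not. With lists of equal length IGF2BP2, DDX1, XRN2 and RPS13 lost it, and without the weakest 25% of each list IGF2BP2, DDX1 and NKG7 did. Under all 3 alternatives 7 of the 20 WT-alone and 1 of the 6 KO-alone genes, NANP, kept their pattern.

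Regions were ranked within each class, wherever they lay. In WT alone the highest percentiles lay in NKD2 (chromosome 5, 1022907 to 1026349, 93.5 and 98.9), over GZMM (chromosome 19, 547329 to 553327), near LCN10 (chromosome 9, 136731724 to 136736909), in NXN (chromosome 17, 940513 to 943401) and 66735 bp from IRF2BPL (chromosome 14, 76955387 to 76957808). Their highest coverage lay between 7 and 12 steps. In KO alone they lay in DOCK8 (chromosome 9, 320141 to 322467), in DGKD (chromosome 2, 233436157 to 233438917), at CIART (chromosome 1, 150281418 to 150283475), in DOK7 (chromosome 4, 3479943 to 3482651) and 319435 bp from the nearest protein-coding gene on chromosome 10 (130518759 to 130519336). The last was 578 bp wide and reached 18 and 25 steps, while the other 4 reached 4 to 11. The widest WT-alone regions were in SARDH (6633 bp), THOP1 (6035 bp) and GZMM (5999 bp). The widest KO-alone regions were in TMEM63B (4924 bp), COQ8B (4846 bp) and FAM53B (4739 bp).

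Within the 8120 shared regions each list gives a rank. The lists differ in length, so a gap in rank is a difference in standing within a list and not a change in level. Both KO percentiles lay below both WT percentiles in 1715 regions (21.1%) and above both in 1289 (15.9%). With 2 ranks against 2, some regions separate like this without any difference between conditions, so these shares alone show no shift. Of the 1715 and 1289 regions, 429 and 301 lay on chromosomes 2, 9 and 17. Chromosome 2 alone had 133 and 19, and chromosome 17 had 171 and 256. The gap between the nearer values was at least 20 points in 306 of the 1715 and 178 of the 1289 regions. It was at least 50 points in 25 and 17. At the start of CEP68, a centrosome gene on chromosome 2, the region (65055650 to 65058580) ranked 91.4 and 89.7 in WT and 3.91 and 17.4 in KO, with 10 and 8 against 4 and 5 steps. The region at SRXN1 (chromosome 20, 651645 to 654392) had 15 and 7 steps in WT and 5 and 4 in KO. Regions in CPNE7, ZNF598 and near LOC105373091 followed. In the other direction a region over PSME3 and AOC2 (chromosome 17, 42842816 to 42848041) ranked 20.4 and 18.6 in WT and 92.5 and 90.3 in KO. A region at the start of ZMYND8, a chromatin reader (chromosome 20, 47356061 to 47358722), ranked 14.4 and 6.82 in WT and 80.9 and 88.1 in KO. SPDYE8 and SPDYE10 also showed this, but have near-identical copies, and a region beside FBXL18 did. These regions were chosen for their gap, so the values are a description. The percentile is that of the strongest peak in the region and can change when a wide peak is called as several.

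The lists not used to make the classes gave a separate readout. In siARID1A cells, A549 cells with no listed YTHDF1 change, ARID1A was knocked down, a subunit of the SWI/SNF chromatin remodelling complex. Their 2 anti-YTHDF1 lists held 91.4% and 92.3% of the shared regions, 47.1% and 48.5% of the WT-alone regions and 36.4% and 37.3% of the KO-alone regions. WT-alone regions were thus held more often, by 10.95 ± 0.366 percentage points (SD, n = 2 lists), and regions of 1 WT and 1 KO list lay between, at 42% and 44.7%. The difference was 10.1 ± 0.836 points among regions of 1 to 2 kb. With classes made without WT replicate 1 it was -34.7 points, where WT-alone regions rest on 1 list and KO-alone regions on 2. WT-alone regions include WT replicate 1, whose pairs with KO lists were held at 43.1% to 47.1%, while pairs of WT replicate 2 with KO lists were held at 37% to 40%. The share thus also followed the library. Its part in the difference was not tested.

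Split by both siARID1A lists, 1072 WT-alone regions (29.9%) were held by both and 1230 (34.3%) by neither. Of KO-alone regions 425 (18.9%) were held by both and 1018 (45.2%) by neither. WT-alone regions held by both had a median percentile of 58.6, against 40.8 for those held by neither, and KO-alone regions 54.9 and 41.2. Without chromosomes 2, 9 and 17 the WT-alone shares were 29.5% and 34.7% and the KO-alone shares 17.3% and 47.2%. Of the 15 named WT-alone list genes 7 had a peak at the start in both siARID1A lists, TXNRD1, ISG15, SMARCD3, KLF1, JUND, PVR and ADAR. MCM3 and DDX1 had one in neither. Over all 599 WT-alone genes the shares were 48.6% held by both and 16% by neither, so the named genes were close to their class. NKG7 and all 5 KO-alone genes of highest percentile were held by both siARID1A lists. These 5 were chosen for their rank. Over all 206 KO-alone genes 42.2% were held by both siARID1A lists and 23.3% by neither.

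Anti-ARID1A lists of the same WT and KO cells held most regions of either class. The WT lists held 82.1% and 85.8% of the WT-alone regions and 67% and 74.2% of the KO-alone regions, and the KO lists 83.6% and 81.8%, and 74.3% and 73.2%. Regions called in WT alone with the YTHDF1 antibody were thus mostly called with the ARID1A antibody in KO cells as well. This was not particular to that class. The KO lists held 79.4% and 78.3% of regions of 1 WT and 1 KO list and 98.5% and 98.3% of shared regions. Of regions of a single list they held 41.9% and 41.2%. The excess of WT-alone over KO-alone regions was 15.1 and 11.6 points in WT lists and 9.37 and 8.61 points in KO lists. It was 4.39 points larger in WT, with no overlap of the groups (exact two-sided permutation p = 0.333, the smallest possible, n = 2 each). Without chromosomes 2, 9 and 17 this difference was 2.43 points, and without WT anti-ARID1A replicate 1 it was 2.63. All 4 anti-ARID1A lists held 2454 WT-alone regions (68.4%) and 1181 KO-alone regions (52.4%), a share not worked out for other classes. They had a peak at the start of 14 of the 15 named WT-alone list genes, DDX1 having one in 3 lists, beside 92.7% of all WT-alone genes and 88.3% of all KO-alone genes with one in all 4 lists. In none of the 6 other lists were 150 WT-alone (4.18%) and 193 KO-alone regions (8.56%), again without a share for other classes. The tall narrow region on chromosome 10 and the DOCK8 region belong to these 193. The NKD2 region was held by both siARID1A anti-YTHDF1 lists and by no anti-ARID1A list.

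**Figure D4:**
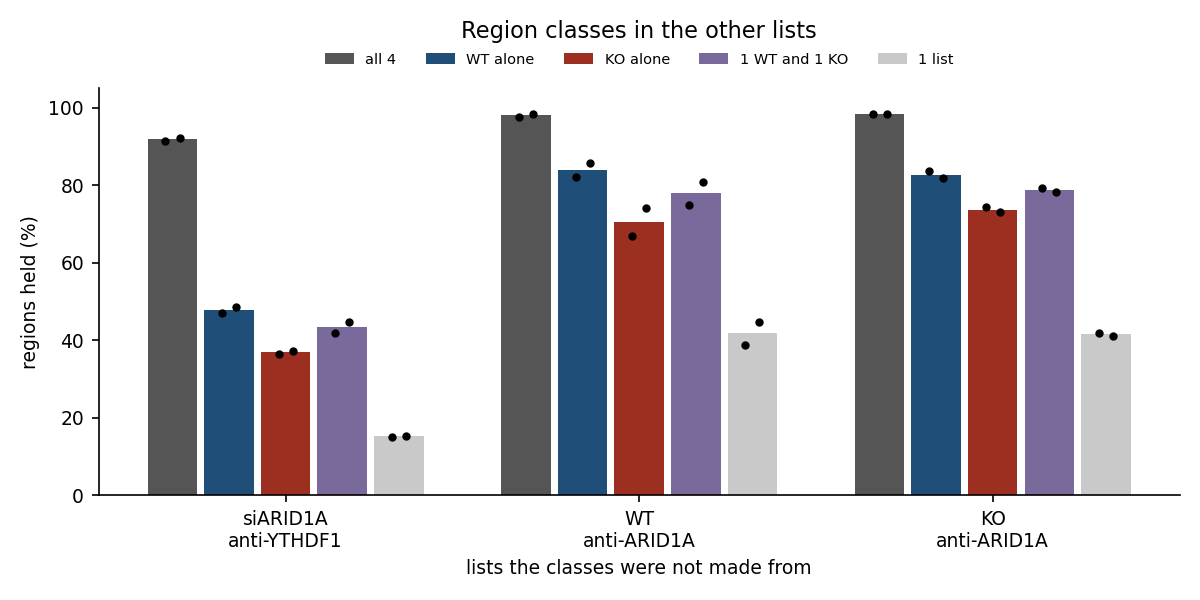
Share of regions of each class, in percent, that lists outside the comparison hold, with bars for the mean of 2 lists and points for each list. WT-alone regions (47.1% and 48.5% in siARID1A anti-YTHDF1) stand above KO-alone regions (36.4% and 37.3%) in all 3 groups of lists, and regions of 1 WT and 1 KO list lie between.

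Classes were unevenly spread over chromosomes. On chromosome 2 there were 398 WT-alone and 81 KO-alone regions and on chromosome 9 there were 320 and 64, ratios of 4.91 and 5 against 1.59 over all chromosomes. Chromosome 17 had the reverse, with 234 and 297. The other 20 chromosomes ranged from 0.857 (X) to 2.5 (chromosome 21). Shared regions moved alike in rank. The median shift of KO against WT was -9.40 percentile points on chromosome 2, -8.59 on chromosome 9 and 1.54 on chromosome 17, and from -2.82 to 1.63 on the others. On chromosome 9 the part beyond 80 Mb had 289 WT-alone and 29 KO-alone regions and a shift of -11.9, while the rest had 31 and 35 and a shift of -0.729. On chromosome 17 beyond 40 Mb there were 109 and 220, and before it 125 and 77. Copy number of these parts was not measured, and a change in it cannot be told apart from a change in the marked protein. NPDC1, BZW1, DDX1, CEP68 and FARP2 lie on chromosome 2 or on chromosome 9 beyond 80 Mb, as do the regions at LCN10, SARDH and DGKD. The DGKD region is KO-alone, against the direction of chromosome 2. LOC122455342, MYO15B, BRCA1 and the region at PSME3 lie on chromosome 17 beyond 40 Mb. The DOCK8 and NXN regions lie on chromosomes 9 and 17 but before 80 and 40 Mb. Without the 3 chromosomes WT-alone and KO-alone regions numbered 2636 and 1812, a ratio of 1.45.

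**Figure D5:**
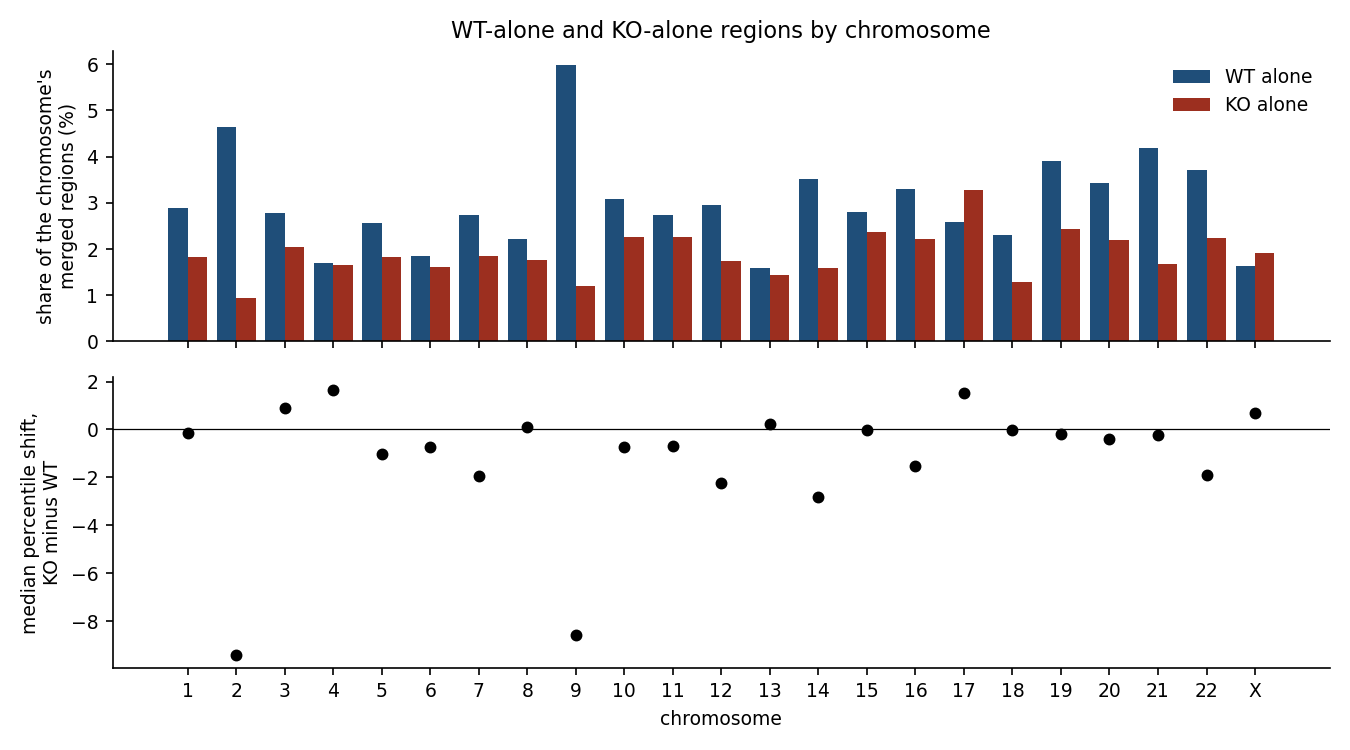
Share of each chromosome's merged regions that are WT-alone or KO-alone, in percent (top), and the median percentile shift of regions held by all 4 lists, KO minus WT (bottom). Chromosomes 2 and 9 stand apart, with 398 and 320 WT-alone regions and shifts of -9.40 and -8.59 points.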

How the data were processed

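Anti-YTHDF1 CUT&Tag peak lists of 2 WT and 2 YTHDF1-KO samples were compared. Each sample has its own list. In the submitters' processing notes, SEACR 1.3, Bowtie2 2.4.2, deepTools 3.5.2, SAMtools 1.9, fastp 0.23.2 and bedtools 2.30.0 were among the tools, with hg38. How IgG entered peak calling was not given in the sources used here. Per the file contents, the signal columns deposited by the authors (total and highest coverage of a peak) are on a scale set per library. The highest values were whole multiples of 10000 divided by a whole number (970, 1179, 3532 and 1186), within 0.01 of a step or 0.01%, so they were read in steps, and total signal was used as a percentile within each list. Groups and replicate numbers came from the titles.

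Peaks overlapping by 1 bp were merged with Python 3.11.15, NumPy 2.4.6 and pandas 2.3.3, and the classification was tested on simulated lists. Gene starts came from RefSeq tables of GRCh38.p14, which listed them for 15812 of 19974 protein-coding genes, 4036 of them with several. A gene was held if any start had a peak within 1 kb. Single regions and genes were not tested, since 2 lists against 2 allow no p below 0.33. Values per library were compared by exact two-sided permutation. Named were, per class, the 5 regions of highest percentile and the 3 widest, at most 15 list genes and the 5 genes of highest percentile per direction, and YTHDF1 and ARID1A. The regions of largest rank gap and the other list genes given with values were added after the values were seen. Members and lists were chosen with earlier results of these data known. Alternatives were stricter and equal-length lists, other overlaps, merging and windows, and leaving out libraries or chromosomes. The IgG samples were not analysed here.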

Additional observations from a re-analysis of the deposited data

How the results depend on the processing

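WT-alone regions outnumbered KO-alone regions without the weakest 25% of each list (2759 and 1675), with lists of equal length (3076 and 1953), with 50% of a region to be covered (3949 and 2124) and with peaks up to 500 bp apart merged (3189 and 2157). Of the equal-length classes 2641 and 1585 were the same regions. With 50% of a region to be covered the regions held by all 4 lists fell to 1659 from 8120, and the cause was not tested. Leaving out single libraries gave 9160 to 11422 regions in all remaining lists, 6176 to 28820 WT-alone and 3142 to 24876 KO-alone regions, and 1149 to 1798 WT-alone and 330 to 824 KO-alone gene starts. The direction turned without KO replicate 1 (6215 WT-alone and 21020 KO-alone) and without KO replicate 2 (6176 and 24876), because a class that rests on 1 list is larger. The peak number ratio ranged from 0.840 to 1.2, that of covered length from 0.664 to 1.2 and that of median width from 0.849 to 1.01, on the other side of 1 without WT replicate 1 and, for peak numbers (1.03), without KO replicate 2. The share at gene starts stayed lower in KO, at -2.56 to -1.77 points when single libraries were left out and -2.88 points without the weakest 25% of each list. The excess of WT-alone over KO-alone regions in siARID1A lists was 7.51 points with 50% of a region covered, 12.4 without chromosomes 2, 9 and 17, 10.1 for regions of 1 to 2 kb and 10.7 and 11.2 for single siARID1A lists. With classes made without WT replicate 1 it was -34.7, since WT-alone regions then rest on 1 list. The settings of region width and of classes without WT replicate 1 were chosen after seeing the data. The WT minus KO difference in anti-ARID1A lists stayed between 2.43 and 6.15 points. Same-numbered libraries did not deviate together (correlation -0.00394 over 8120 shared regions). With the replicate block the ratios of 0.987, 0.856 and 0.925 had an exact sign test p of 1 and the share at gene starts (-2.17 points) a p of 0.5, the smallest possible. Depth is unknown, and calls of 2 or 3 steps limit what an absent call shows.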
